A study of Caenorhabditis elegans with 2 samples.

Results

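The X chromosome peaks of a SKN-1 chromatin immunoprecipitation are the rows on X of the peak list that the authors called on both libraries together, in build ce11 of the Caenorhabditis elegans genome. There are 2652 of them among 13302 rows. Of these, 156 are also in the authors' optimal list, which holds 872 rows and comes from the authors' procedure for reproducible peaks. Optimal peaks could still rank far apart in the libraries, down to rank 5260 in replicate 1 and 25709 in replicate 2 on X. They are called optimal X peaks below, and the other 2496 are called relaxed-only X peaks. The comparison group is the rows of all 5 autosomes joined, 714 optimal and 9934 relaxed-only, and 2 mitochondrial rows were set aside. By design the list called on both libraries holds background as well as peaks. Relaxed-only peaks had q values up to 0.96, whereas the largest q in the optimal list was 0.00531. The tier boundary is a boundary in signal: the weakest optimal X peak had a signal of 43.21 and the strongest relaxed-only X peak one of 43.18. The signal is the peak caller's enrichment value for a peak and was used within 1 list only.

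There is a single group of 2 libraries, biological replicates 1 and 2, from whole L2 larvae of strain OP178 with males and females pooled. The strain has the genotype unc-119(ed3) III; wgIs178. Per the labels the transgene wgIs178 expresses SKN-1 joined at its C terminus to GFP and FLAG, and skn-1 is given as the antibody. The description of both samples names PHA-4, so the labels disagree on the protein and the words bound by both were counted. What drives the transgene is not given in the sources used here, whole larvae do not say in which cells a site was occupied, and there is no second condition. Read depth is not in the peak lists and is unknown. The units of the tests are peaks, matches or genes of lists from 2 libraries. Every interval and p-value below therefore covers the counting of peaks and not the spread between worms.

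SKN-1 is a transcription factor of the Nrf family that binds DNA as a monomer and drives genes of detoxification and of the proteasome, mostly in the intestine. The X chromosome differs from the autosomes in the worm: hermaphrodites carry a pair and males a single copy. A condensin-containing dosage compensation complex coats both X chromosomes of hermaphrodites and lowers their expression. It loads at recruitment sites on X that hold copies of a short motif, and GCGCAGGG is the core of that motif. PHA-4 is the forkhead factor of pharynx and gut.

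The sequences on which the account of X turns are those around GCGCAGGG, because this word set X peaks apart from autosomal ones. Each line gives 30 bases of ce11, 5′ to 3′ on the strand that carries the word, with the core in capitals. The first 8 come from the 7 strongest peaks with the core, which have ranks 30 to 104 in the optimal list: the match nearest to the summit in each, and the other match of the peak near xol-1, the master switch gene of sex determination and dosage compensation. The next 2 are the weakest X matches and the last is the single autosomal one. Coordinates are those of the 30 bases.

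chrX:16682161-16682190, minus strand: aagaaaacatcGCGCAGGGaacatcaaatt
chrX:2997112-2997141, minus strand: ttaaatttatcGCGCAGGGaggaagtagcc
chrX:8036390-8036419, minus strand: aattttttatcGCGCAGGGacgtatgtcga
chrX:8036424-8036453, plus strand: atttttccatcGCGCAGGGaacccttcgat
chrX:4209255-4209284, minus strand: ttgccgctatcGCGCAGGGacacctctttc
chrX:806663-806692, plus strand: gtgcgattatcGCGCAGGGgtgtttgttgc
chrX:11094114-11094143, minus strand: cgttttatatcGCGCAGGGagcttatgcat
chrX:13514547-13514576, plus strand: atacctttatcGCGCAGGGatattgaaatc
chrX:5429579-5429608, plus strand: cattaaatttaGCGCAGGGaggacgccgtt
chrX:489997-490026, plus strand: gaatacaataaGCGCAGGGaggtggtgaaa
chrIII:10989723-10989752, minus strand: gtgtcatccttGCGCAGGGgccatgctaat

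GCGCAGGG was found, on either strand within 100 bp of the summit, at 13 of 156 optimal X peaks and at 1 of 714 optimal autosomal peaks. These are 8.33% (95% exact interval 4.51 to 13.8%) and 0.14% (0.00355 to 0.778%), a difference of 8.19 percentage points. The odds ratio was 64.4 (95% interval 9.53 to 2758; Fisher's exact test, two-sided, p = 1.38e-08 adjusted over 9 words). In flanking windows of the same width 500 bp away, 1 of 312 on X and 1 of 1406 on the autosomes held it. The ratio of the summit odds ratio to the flank odds ratio was 9.92 with an interval of 0.585 to 168. For this ratio a small constant was added to every count, so its numerator is not the 64.4 above. With so few flank matches the X-to-autosome contrast at summits could not be told from that in flanks. At relaxed-only peaks the word was at 6 of 2496 X summits (0.24%) and 9 of 9934 autosomal summits (0.0906%), a difference that did not pass the threshold (adjusted exact p = 0.124). In the flanks of relaxed-only peaks it was in 7 of 4449 and 7 of 17796 windows (adjusted exact p = 0.0209). In windows of the same width just upstream of the outermost 5′ end of every protein-coding gene, called all promoters below, 2 of 2731 on X (0.0732%) and 10 of 17242 on the autosomes (0.058%) hold it.

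Seen from the genome, X holds 81 matches of GCGCAGGG, or 4.57 per Mb, and the autosomes hold 233, or 2.82 per Mb. The ratio of these densities is 1.62 (95% interval 1.24 to 2.09; exact test, p = 3.56e-04 adjusted over 3 tests). The share of matches that lay at an optimal summit was 21% on X (17 of 81) and 0.429% on the autosomes (1 of 233), an odds ratio of 60.8 (9.19 to 2586; Fisher's exact test, adjusted exact p = 1.09e-09). The 17 matches lie at 13 peaks, so matches at the same peak are not independent. The test restates the summit counts given above and is no further support.  On X, 58 of the 81 matches had no summit of either tier nearby.

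The 17 X matches at optimal summits shared bases beside the core that had not been used to find them. T stood at the second base before the core in 14 of 17, against 24 of the 64 X matches elsewhere. C stood directly before it in 13 of 17 against 20 of 64, and A directly after it in 14 of 17 against 20 of 64. These bases were read from the matches themselves and carry no test. Joined with the more frequent base at the third position before, they spell ATCGCGCAGGGA, a word with 10 matches on X, 9 of them at optimal summits and the other at a relaxed-only summit. The longer word was built from the X matches at optimal summits, so its count there is largely fixed by that choice. Its counts below are descriptive and were not tested. The autosomes hold 1 match, at no summit. The 2 weakest X matches and the autosomal match printed above lack the C directly before the core. Of windows without the core, 2 of the 143 optimal X ones and 0 of the 713 optimal autosomal ones came within 1 mismatch of that longer word.

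Peaks with the core were among the strongest on X. Their 13 signals ran from 57.57 to 150.3 with a median of 92.2, and the other 143 optimal X peaks had a median of 52.36. With the optimal list cut by signal into 4 blocks of about equal size, 11 of the 13 were in the strongest block and 2 in the next, and 6 were among the 20 strongest X peaks. The strongest, of signal 150.3, was intergenic at chrX:16681944-16682283. The next, of signal 146.8, lay in an intron of Y41G9A.17 at chrX:2996937-2997276. The third, of signal 130.9, lay 4858 bp upstream of the 5′ end of xol-1. By place, 7 were intergenic, 3 in introns (Y41G9A.17, mom-1 and egl-17), 1 in a coding exon of pks-1, and 2 in promoters. At promoter summits alone the word, at 2 of 81 on X and 0 of 507 on the autosomes, did not pass the test (adjusted exact p = 0.169). Those promoters belong to nspc-17 and to ins-39, an insulin-like peptide gene. mom-1 encodes the Porcupine acyltransferase of Wnt secretion, egl-17 an FGF ligand and pks-1 a polyketide synthase. The 13 were spread along X, with 316716 to 3057690 bp between neighbours. 4 of them held the core a second time.

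**Figure D1:**
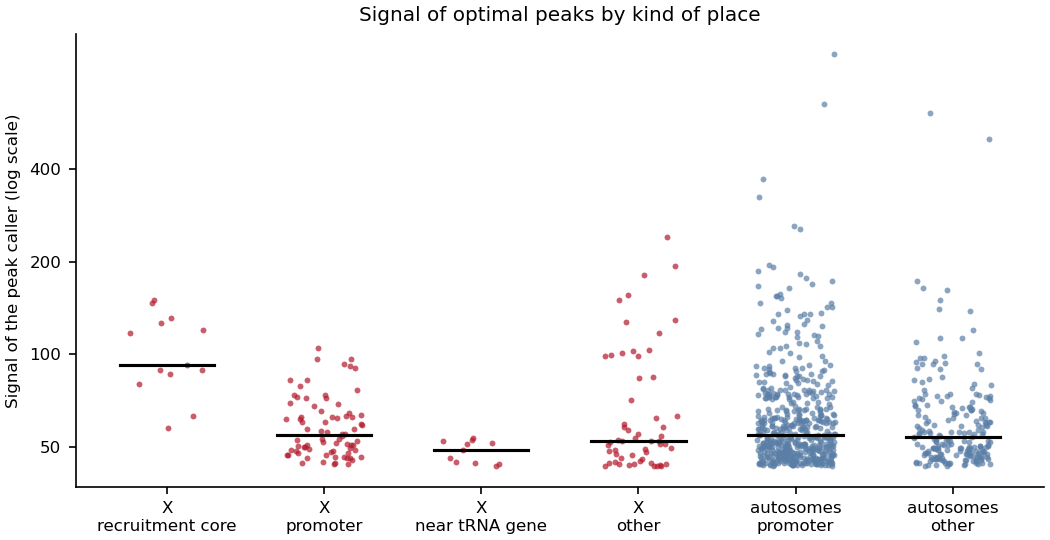
Signal of each optimal peak (log axis, the caller's own value) by chromosome group and place; a bar marks the median. X peaks with the recruitment core have a median of 92.2, the 11 other X peaks near tRNA genes 48.64, the 76 X promoter peaks in neither group 54.52 and the remaining 56 X peaks 52.25; the strongest peaks of all are autosomal, up to 947.

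Both libraries showed the core peaks on their own. In the list of replicate 1 the 13 peaks had signals of 34.98 to 109.9 and ranks of 24 to 607, and in that of replicate 2 signals of 17.05 to 53.67 and ranks of 22 to 603. Taking the 870 strongest nuclear peaks of each library alone, the core was at 13 of 154 X and 1 of 716 autosomal summits in replicate 1. In replicate 2 it was at 13 of 163 X and 1 of 707 autosomal summits. The peaks of the pooled and replicate lists come from the same reads, so the pooled count is not a further replicate.

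**Figure D2:**
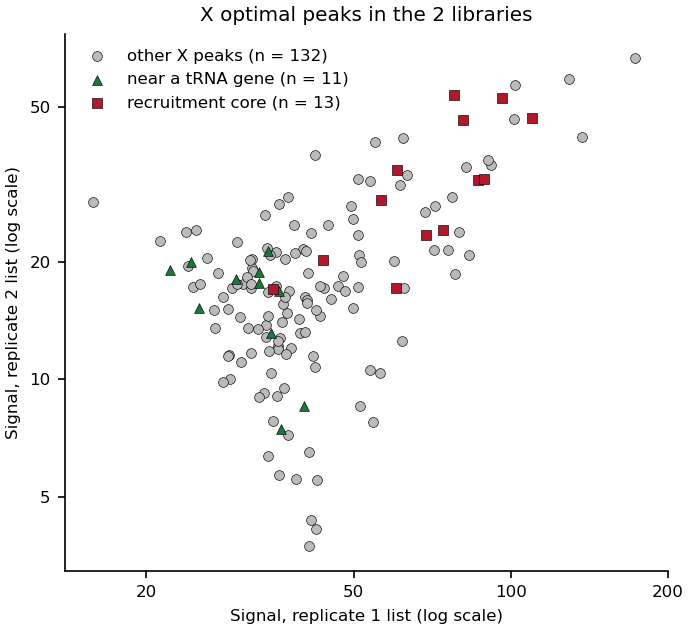
Signal of the 156 optimal X peaks in the list of replicate 1 (x axis) and replicate 2 (y axis), both on log axes, each on the scale of its own list. The peaks with the recruitment core (squares) lie at 34.98 or above in replicate 1 and 17.05 or above in replicate 2, and the peaks near a tRNA gene (triangles) lie at 40.22 or below in replicate 1.

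A search over all 8192 words of 7 bases, which assumed no factor, returned mostly the same sequence. 6 words (0.0732%) were more frequent at optimal X than at autosomal summits at an adjusted p under 0.05 (Fisher's exact test), and 0 (0%) were less frequent. At an unadjusted p under 0.05 there were 422 of the 8192 words, 335 more and 87 less frequent on X. These unadjusted counts are not read as a result. The smallest adjusted p belonged to CCTGCGC, the reverse complement of the first 7 bases of the core, at 16 X and 5 autosomal summits (4.26e-05). GCAGGGA (16 and 11), CCCTGCG (15 and 10) and CGCGCAG (14 and 10) overlap the core or its neighbouring bases. CCTTCGC, the reverse complement of GCGAAGG, was at 10 X and 3 autosomal summits (adjusted exact p = 0.00955), and 6 of those 10 windows held no core. GTGGATA was at 12 and 7 (adjusted exact p = 0.0164), and 7 of its 12 held no core. The 5 words with the smallest p in the other direction were ATTTTTC at 21 X and 206 autosomal summits, ATTTTCG at 2 and 72, CGAAAAA at 13 and 142, CGCGAAA at 0 and 40 and TCGAAAA at 7 and 99, with adjusted p of 0.0565 to 0.274.

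For the word bound by SKN-1 no difference between X and the autosomes passed the test among optimal peaks. It is TATCAT or TGTCAT after 2 bases that are each A or T, read on both strands, and it contains ATCAT or GTCAT. It was at 44 of 156 X summits (28.2%) and 196 of 714 autosomal ones (27.5%), a difference of 0.754 percentage points and an odds ratio of 1.04 (0.688 to 1.55; adjusted exact p = 0.844). In the flanks it was at 13.5% and 10.4%, and in all promoters at 12.4% on X and 11% on the autosomes. The counts leave room for odds that differ by up to the ends of that interval. On X it was held by 18 of 42 peaks in the strongest block of the list and by 9 of 39 in the weakest, and on the autosomes by 80 of 176 and 33 of 178. By place it was at 18 of 81 promoter, 16 of 46 intergenic and 7 of 17 intron summits on X, against 134 of 507, 43 of 136 and 12 of 47 on the autosomes, with no test of these shares. Among the optimal X peaks with GCGCAGGG, only the one in the promoter of ins-39 also held the SKN-1 word. How the 2 words go together was not tested.

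Other words of the set gave no difference past the threshold among optimal peaks. TGATAA, bound by the GATA factors of the gut, was at 41.7% of X and 38.7% of autosomal summits. TGTTTAC or TGTTTGC, a strict form of the PHA-4 word, was at 16% and 13.2%, ATCAT or GTCAT at 67.9% and 70.3%, and the E-box CACGTG at 9.62% and 6.02%. GAGAGAGA was at 4.49% and 7.56%, the bZIP word TGACTCA or TGAGTCA at 2.56% and 3.78%, and CTGCGTC at 7.69% and 13.3%. Their adjusted p ranged from 0.266 to 0.713 (Fisher's exact test). For CTGCGTC the flanks stood the other way, at 1.92% on X and 1.21% on the autosomes (adjusted exact p = 0.495). Its ratio of odds ratios was 0.333 with an interval of 0.111 to 0.999, just below 1 and not adjusted over the words. The intervals of the other words named here cover 1. In all promoters TGATAA is found in 21.5% on X and 23% on the autosomes, and CTGCGTC in 2.01% and 3.44%. The strict PHA-4 word was in 7.69% of X and 5.26% of autosomal flanks, and is in 8.97% and 8.7% of all promoters.

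Among relaxed-only peaks the counts were larger and several words differed. The SKN-1 word was at 15.3% of 2496 X and 12% of 9934 autosomal summits (odds ratio 1.33, 1.17 to 1.51; adjusted exact p = 2.99e-05). Its flanks differed as well, at 11.3% and 9.46% (adjusted exact p = 9.08e-04), and the ratio of the odds ratios, 1.09 (0.928 to 1.29), covers 1. CTGCGTC was lower on X, at 2.85% against 5.21% (adjusted exact p = 1.47e-06), and GAGAGAGA was lower at 2.68% against 4.51% (adjusted exact p = 5.28e-05). The flanks of CTGCGTC differed too, at 1.03% and 1.76% (adjusted exact p = 9.08e-04). The ratios of odds ratios were 0.909 (0.61 to 1.36) for CTGCGTC and 0.745 (0.503 to 1.10) for GAGAGAGA, and both intervals cover 1. ATCAT or GTCAT (62.8% against 57.4%, adjusted exact p = 4.59e-06) and TGATAA (30.7% against 28%, adjusted exact p = 0.0166) were higher on X. The strict PHA-4 word did not differ at summits, at 9.94% and 8.82% (adjusted exact p = 0.124). Its flanks did, at 7.55% and 5.44% (adjusted exact p = 8.79e-07). Its ratio of odds ratios was 0.804 (0.66 to 0.978), an interval below 1.

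**Figure D3:**
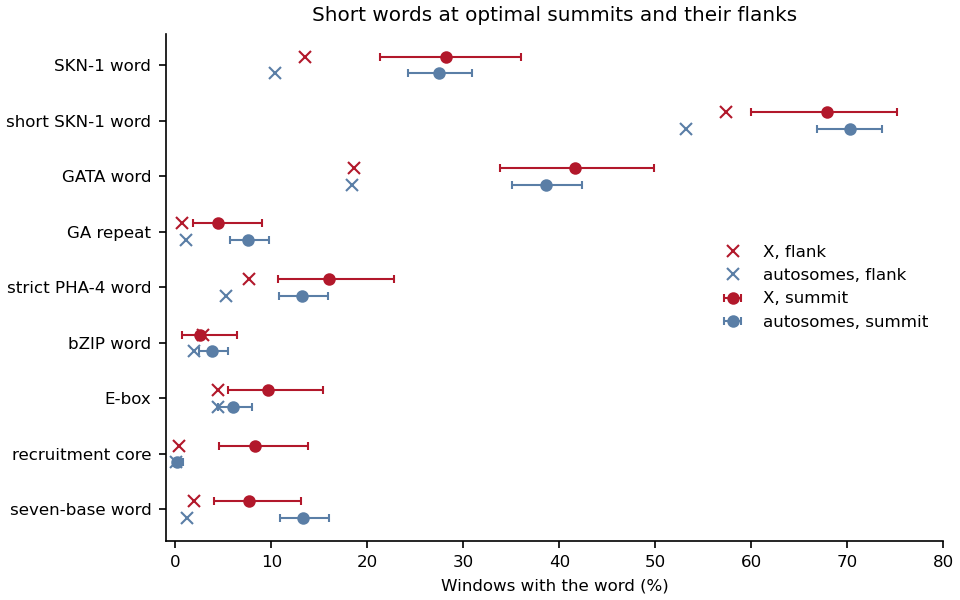
Share of optimal summit windows (circles, 95% exact intervals) and flank windows (crosses) that hold each word, X in red and autosomes in blue. The recruitment core is GCGCAGGG (8.33% of X, 0.14% of autosomal windows), the seven-base word is CTGCGTC, and the SKN-1 word is at 28.2% and 27.5%.

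Optimal X peaks came at nearly the autosomal density by length, and fewer of them lay in promoters. X makes up 17.7% of the nuclear length and 13.7% of protein-coding genes (2731 of 19973), and it carried 17.9% of optimal and 20.1% of relaxed-only peaks. Optimal peaks numbered 8.8 per Mb on X and 8.65 on the autosomes, a ratio of 1.02 (95% interval 0.851 to 1.21; exact binomial test, p = 0.907 adjusted over 22 comparisons). Because X has fewer genes per Mb, the ratio per protein-coding gene was 1.38 (1.15 to 1.64; adjusted exact p = 8.91e-04). Among the 435 peaks above the median signal that ratio, 1.34, did not pass the test (adjusted exact p = 0.0556). Counting promoter peaks only, it was 1.01 per gene (0.788 to 1.28; adjusted exact p = 0.997) and 0.923 per Mb of promoter (0.721 to 1.17; adjusted exact p = 0.685). Outside promoters X held 5.41 optimal peaks per Mb against 3.44, a ratio of 1.57 (1.19 to 2.06; adjusted exact p = 0.00215). Relaxed-only peaks were denser on X by a ratio of 1.17 per Mb (1.12 to 1.22; adjusted exact p = 1.56e-11).

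A promoter, taken as 1000 bp upstream to 200 bp downstream of any 5′ end annotated for a protein-coding gene, held 81 of the 156 optimal X summits (51.9%, 43.8 to 60%). On the autosomes it held 507 of 714 (71%, 67.5 to 74.3%). The odds ratio was 0.441 (0.305 to 0.639; Fisher's exact test, p = 5.41e-05 adjusted over 7 classes of place). Each autosome alone was above X, from 67.1% on V to 79.8% on I. Promoters cover 21.8% of X and 27.1% of the autosomes, and the share of summits over the share of length was 2.38 and 2.62. Intergenic sequence held 46 of 156 X summits (29.5%) and 136 of 714 autosomal ones (19%), with an odds ratio of 1.78 (1.17 to 2.67; adjusted exact p = 0.0165). It covers 29.3% of X and 20% of the autosomes, so that in both groups intergenic summits came at about their share of length, at ratios of 1.01 and 0.954. Introns held 10.9% and 6.58% (adjusted exact p = 0.124), and coding exons 1.92% and 1.26% (adjusted exact p = 0.536). Among relaxed-only peaks the promoter share was 34.1% on X and 43.4% on the autosomes (odds ratio 0.675, 0.615 to 0.741; adjusted exact p = 1.79e-16).

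**Figure D4:**
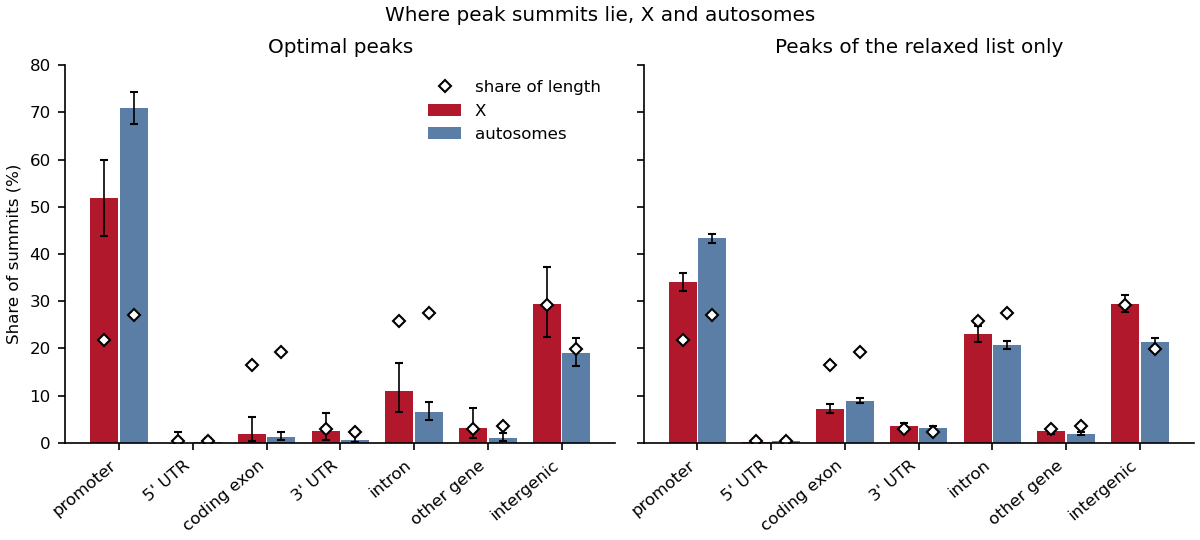
Share of summits in each class of place, X in red and autosomes in blue, with 95% exact intervals; diamonds give the share of chromosome length in the class. In optimal peaks the promoter bars stand at 51.9% and 71% and the intergenic bars at 29.5% and 19%, and the promoter bars of relaxed-only peaks stand at 34.1% and 43.4%.

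The gap in promoter share had its largest point estimate among the strongest peaks. In the strongest block of the optimal list, 218 peaks in all, 17 of 42 X summits were in promoters (40.5%), against 131 of 176 autosomal ones (74.4%), an odds ratio of 0.235 (0.108 to 0.5; Fisher's exact test, p = 2.90e-04 adjusted over 4 blocks). In the second block the shares were 68.6% and 68.9% (adjusted exact p = 1). In the third they were 52.5% and 71.8%, and in the weakest 48.7% and 69.1%, each with an adjusted p of 0.0328. Whether these odds ratios differ from one another was not tested. Of the 20 strongest peaks of each group, 1 was in a promoter on X and 15 on the autosomes. Of those 20 on X, 16 were intergenic.

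X summits also stood farther from the start of genes. Within 200 bp of a protein-coding 5′ end lay 36 of 156 optimal X summits (23.1%) and 275 of 714 autosomal ones (38.5%). The odds ratio was 0.479 (0.311 to 0.725; adjusted exact p = 4.78e-04). Among the 435 peaks above the median signal it was 19 of 76 and 138 of 359 (adjusted exact p = 0.0697). The median distance was 802.5 bp on X (quartiles 214.8 and 2287) and 273.5 bp on the autosomes (142.2 and 1075). Among promoter summits alone the medians were 224 and 186 bp. For relaxed-only peaks 13.5% and 20.4% lay within 200 bp (adjusted exact p = 5.00e-15), with medians of 1258 and 853.5 bp. X has fewer genes per Mb, and no distance expected from gene spacing was computed for either group. The part of gene spacing in these differences was not tested. Among promoter peaks, summits shared by several promoters were rarer on X. How often promoters overlap in each group, with or without a summit, was not counted, so no expected share can be set beside this. A summit fell in the promoters of 2 or more genes, on the same or on opposite strands, in 8 of 81 X promoter peaks (9.88%) and in 184 of 507 autosomal ones (36.3%), with an odds ratio of 0.193 (0.0785 to 0.412; adjusted exact p = 1.75e-06).

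**Figure D5:**
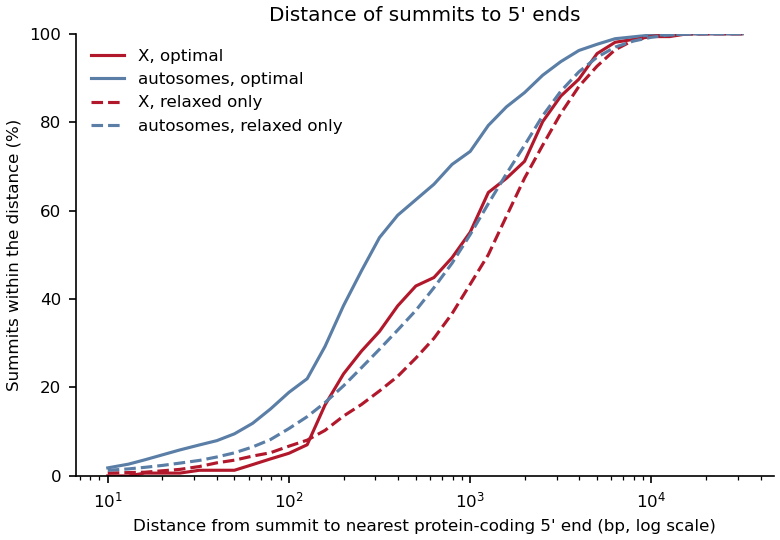
Cumulative share of summits (y axis, %) within a distance (x axis, bp, log scale) of the nearest protein-coding 5′ end, for X and autosomes in both tiers. The optimal X curve runs below the optimal autosomal one, with medians of 802.5 and 273.5 bp, and the relaxed-only medians are 1258 and 853.5 bp.

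No X peak was as strong as the 8 strongest autosomal peaks, and the medians were close. Optimal X signals ran from 43.21 to 240 with a median of 53.35, and autosomal ones from 43.23 to 947 with a median of 54.38. Above the median of the whole optimal list stood 76 of 156 X and 359 of 714 autosomal peaks (odds ratio 0.94, 0.654 to 1.35; adjusted exact p = 0.907). Within promoters it was 41 of 81 and 257 of 507 (odds ratio 0.997, 0.606 to 1.64; adjusted exact p = 1). The interval leaves room for a moderate difference in either direction.

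The strongest X peak had a signal of 240 and rank 9 in the optimal list, at chrX:1420675-1420798, inside the noncoding gene F19G12.10. In the lists of replicates 1 and 2 its signals were 172.9 and 66.64. It is one of 2 optimal X peaks narrower than the 340 bp of the others. It held neither the core nor the SKN-1 word. The second, of signal 194 at chrX:12363038-12363377, and the third, of signal 181.6 at chrX:11937356-11937695, were intergenic, nearest to the 5′ ends of F19H6.5 and F55G7.5. The third is one of the windows a single mismatch from the longer recruitment word. The fourth (156.3) was nearest to ZK899.6. The fifth (150.6) lay in an intron of asp-14, an aspartyl protease gene, and is the other narrow peak. The sixth and the eighth were core peaks described above, nearest to F22H10.2 (150.3) and xol-1 (130.9). The remaining intergenic peaks of the 20 strongest were nearest to taf-3 (a subunit of the general factor TFIID, 2 peaks of signal 129.5 and 99.7), fbxb-58 (126.9), F20B6.9 (126), gtr-1 (120.1), nhr-120 (a nuclear hormone receptor gene, 117.6), W02H3.3 (117.6), D1005.2 (103.5), F56C3.1 (102.8), T27A8.7 (101.1) and atf-4 (98.89). ATF-4 is a bZIP factor of the integrated stress response.

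For contrast with the core peaks, 3 summit windows of 121 bases are printed on the plus strand: the pair of cores near xol-1, the window beyond atf-4 with the SKN-1 word in duplicate, and the strongest X peak, with none of them in these 121 bases. Capitals mark the core, the SKN-1 word on either strand and TGATAA.

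chrX:8036395-8036515: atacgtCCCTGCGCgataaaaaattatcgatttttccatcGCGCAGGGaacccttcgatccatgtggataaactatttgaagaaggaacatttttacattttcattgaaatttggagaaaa
chrX:14809027-14809147: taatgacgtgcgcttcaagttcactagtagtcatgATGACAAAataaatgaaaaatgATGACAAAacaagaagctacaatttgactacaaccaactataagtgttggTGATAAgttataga
chrX:1420672-1420792: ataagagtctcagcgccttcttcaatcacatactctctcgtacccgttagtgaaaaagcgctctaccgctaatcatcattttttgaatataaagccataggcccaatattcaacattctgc

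Summits close to tRNA genes were commoner on X, which carries 276 of the annotated tRNA genes against 336 on the autosomes. Within 200 bp of a tRNA gene lay 12 of 156 optimal X summits (7.69%) and 4 of 714 autosomal ones (0.56%), a difference of 7.13 percentage points and an odds ratio of 14.7 (4.38 to 63.5; Fisher's exact test, adjusted exact p = 1.75e-06). Counted per tRNA gene, 14 of 276 on X (5.07%) and 4 of 336 on the autosomes (1.19%) had an optimal summit nearby, an odds ratio of 4.43 (1.37 to 18.7; exact p = 0.00667). The 12 X peaks were weak, with signals from 43.26 to 57.57, and 11 of them stood below the median of the optimal list. 1 of them, in an intron of egl-17, also held the core. Relaxed-only summits near tRNA genes numbered 99 on X (3.97%) and 100 on the autosomes (1.01%), an odds ratio of 4.06 (3.03 to 5.44; adjusted exact p = 3.17e-20). Per tRNA gene the relaxed-only counts were 111 of 276 and 105 of 336, an odds ratio of 1.48 (1.05 to 2.09; exact p = 0.022). In both tiers more X tRNA genes than X summits were counted, so genes near the same summit are not independent in these tests. Among the 435 optimal peaks above the median signal the counts were 1 and 2, and the difference did not pass the threshold (adjusted exact p = 0.517).

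An optimal summit stood in the promoter of 89 of 2731 X genes (3.26%) and of 688 of 17242 autosomal genes, with 3.89% over all 19973. The odds ratio was 0.811 (0.64 to 1.02; adjusted exact p = 0.11). With promoters taken as 2000 bp upstream to 200 bp downstream it was 109 and 913 genes, and the lower share on X passed the test (adjusted exact p = 0.00584). With any pooled summit counted, it was 827 X genes (30.3%) against 29.2% of all genes, and an odds ratio of 1.06 for X against the autosomes (0.973 to 1.16; adjusted exact p = 0.245). Among the 20 strongest X peaks only the one between C27C12.1 and C27C12.4 was in a promoter, with signal 104.5, and 62.01 and 41.65 in replicates 1 and 2.

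The next promoter peaks by signal, named after their values were seen, were those of spp-3 (a saposin-like protein, 96.47), F19G12.9 (96.16), C07D8.6 (92.68), mocs-1 and nkat-3 (genes of molybdenum cofactor and kynurenine metabolism, 91.44) and nipi-3 (a Tribbles-family pseudokinase of innate immunity, 90.02). Further down stood lro-1 (82.24), dpy-22 (a Mediator subunit, 78.66), epg-7 (an autophagy gene, 73.91), hrg-1 (a heme transporter, 73.76), cebp-1 (a C/EBP bZIP factor, 72.21) and puf-9 (a Pumilio-family RNA binder, 71.79). The summit at nipi-3 lay 194 bp upstream of its 5′ end, and that at cebp-1 809 bp upstream. The signals of nipi-3 were 63.34 and 33.51 in replicates 1 and 2, and those of cebp-1 50.99 and 23.53.

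Gene families of the SKN-1 programme had few members on X to begin with, and the 27 lists are counted here beside the 3.26% of all X genes, with no test. No proteasome subunit gene is on X (0 of 31), and 28 of those 31 had an optimal summit on the autosomes. Of 3 X-linked glutathione S-transferase genes, enzymes that conjugate toxins, gst-36 had one (signal 50.68). Of 7 cytochrome P450 genes cyp-43A1 had one (47.14), of 3 C-type lectins clec-265 (63.55), and of 2 cytosolic ribosomal protein genes rpl-11.2 (82.31). In insulin signalling, whose kinases phosphorylate SKN-1, akt-2 (60.29) and sgk-1 (44.21) of 4 X members had optimal peaks, and pdk-1 and ist-1 had relaxed-only ones. Of the dosage compensation complex, 2 of 10 members are on X: sdc-2, which brings the complex to X, had an optimal peak 389 bp upstream (signal 50.69, with 36.96 and 20.42 in replicates 1 and 2), and sdc-1 a relaxed-only one.

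Several lists had no X-linked member with an optimal summit in its promoter. They included 23 nuclear hormone receptor genes, 29 cuticle collagens, 18 ceh homeobox genes, 18 ligand-gated ion channels, 19 neuropeptide-like and 13 FMRFamide-like peptide genes, and 11 TWK potassium channels. The list of 6 innexins, the list of 7 acetylcholine receptor subunits and the 5 X-linked vitellogenin genes were also at 0. Autosomal members of most of these lists were at or near 0 as well, with 0 of 140 cuticle collagens, 0 of 52 neuropeptide-like and 0 of 18 FMRFamide-like genes, 0 of 38 ligand-gated channels, 0 of 36 TWK channels, 0 of 22 acetylcholine receptor subunits, 0 of 19 innexins and 1 of 45 ceh genes. Of the autosomal nuclear hormone receptor genes, 10 of 246 had an optimal summit, beside 3.99% of all autosomal genes. Relaxed-only summits were in 16 of the 23 X-linked nuclear hormone receptor promoters, nhr-3 and nhr-35 being the strongest, in 6 of 18 ceh genes, and in none of the vitellogenin and innexin genes. Over all X genes, 30.3% had a summit of either tier in the promoter. The lists of UDP-glucuronosyltransferases, heat shock proteins, X signal elements, heterochronic genes, body wall muscle genes, vesicle release genes, antioxidants, glutathione supply, SKN-1 regulators and lipid metabolism, with 1 to 9 X members each, had 0 X members with an optimal summit. Between 0 and 3 X members of each had a relaxed-only one. Their autosomal members with an optimal summit were 10 of 47 heat shock, 4 of 22 antioxidant, 3 of 15 SKN-1 regulator and 2 of 13 glutathione supply genes. The other counts were 3 of 63 UDP-glucuronosyltransferase, 1 of 14 muscle, 1 of 21 lipid, 0 of 9 X signal, 0 of 7 heterochronic and 0 of 11 vesicle release genes.

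No difference between X and autosomal optimal peaks in how often each library held them passed the test. Among the 870 strongest peaks of replicate 1 were 129 of 156 X (82.7%) and 587 of 714 autosomal optimal peaks (82.2%; Fisher's exact test, adjusted exact p = 1), a difference of 0.479 points. In replicate 2 it was 104 of 156 (66.7%) and 434 of 714 (60.8%; adjusted exact p = 0.348), a difference of 5.88 points. All 156 were in the relaxed lists of both libraries. Optimal X summits were spread along the chromosome, with 4 to 14 in each of 18 bins of 1 Mb and a median gap of 74950 bp between neighbours.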

How the data were processed

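The authors deposited peak lists of each library, of both libraries pooled and an optimal list, in builds ce11 and ce10. Per the file headers (readmes), the relaxed lists derive from each library's alignments and a further alignment shared by both, and the optimal list from the relaxed lists. Each deposited peak carries the caller's signal value and a −log10 q-value from the authors' caller. The sources used here do not give the aligner, caller, filters or cutoffs, and read depth is unknown.

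All positions used the ce11 lists, the WBcel235 genome and Ensembl release 115 genes. Each peak was placed by its summit. X was compared with the joined autosomes by two-sided Fisher's exact tests or exact binomial tests, with Benjamini-Hochberg adjustment over 22 single comparisons, 7 classes of place, 9 words, 8192 words of 7 bases, 4 blocks of the list by signal, 3 tests of core matches or 2 replicates (threshold 0.05). Per-tRNA-gene p was not adjusted. Intervals are 95%, exact (Clopper-Pearson for shares) unless a ratio of odds ratios is given, which has a Wald interval. Ratios of odds ratios use sample odds ratios with a small constant added to every count. They are therefore not quotients of the printed odds ratios. Computation used Python 3.11, with numpy 2.4.6, scipy 1.17.1 and matplotlib 3.10.9, and the counting steps were tested on simulated windows and summits.

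Named genes are those whose promoter holds a summit among the 20 strongest optimal X peaks, otherwise the gene holding the summit or with the nearest 5′ end, and the 2 members of each gene list with the strongest optimal X peak; named words are the 9 words and the 5 of 7 bases with the smallest p in each direction. Genes named beyond this rule were chosen after their values were seen. The members, lists and words were chosen with earlier results of these data known. Alternatives were each library alone, peaks above the median signal, full-width peaks, other windows and the ce10 lists.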

Additional observations from a re-analysis of the deposited data

How the results depend on the processing

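Of 128 recomputed values for 20 results, 105 kept their direction and their side of the threshold. When the 870 strongest peaks of either library alone replaced the optimal list, the promoter share of X stayed 15.1 to 17.1 percentage points below that of the autosomes and the share near a 5′ end 13.3 to 14.0 points below. GCGCAGGG stayed 7.83 to 8.30 points above, and summits near tRNA genes 5.80 to 7.88 points above.
In those lists the SKN-1 word ran from -6.02 to 0.778 points (X minus autosomes), TGATAA from -5.63 to 0.972, CACGTG from -0.23 to 2.81, TGACTCA or TGAGTCA from -0.375 to 0.0345 and the share in the stronger part of the list from -1.13 to 0.789, none of which passed the test. Among the 435 optimal peaks above the median signal the ratio of peaks per Mb was 0.986 and that per gene 1.34 (adjusted exact p = 0.0556), the share near a 5′ end differed by -13.4 points (adjusted exact p = 0.0697) and that near tRNA genes by 0.759 points. The SKN-1 word there differed by -3.95 points, TGATAA by -0.359 and TGTTTAC or TGTTTGC by -0.491. The share of peaks in the strongest of 4 blocks by signal differed by 2.27 points. With promoters of 500 bp upstream and 100 bp downstream, and of 2000 and 200 bp, promoter peaks per gene had ratios of 0.96 and 0.971, and with the longer promoter bound genes were rarer on X by a difference of -1.30 points (adjusted exact p = 0.00584). Within 50 bp of the summit the SKN-1 word differed by -1.24 points and TGATAA by -0.83. At promoter summits only, the SKN-1 word differed by -4.21 points and GCGCAGGG by 2.47 points (adjusted exact p = 0.169). Alternatives chosen after seeing the data left out summits with GCGCAGGG, where peaks per Mb had a ratio of 0.934 and promoter peaks per gene 0.984, and summits near tRNA genes, where ATCAT or GTCAT differed by 0.693 points. The cause of these changes was not tested. No paired analysis was possible because the series has 1 group. Read depth is unknown, 2 libraries give no spread between worms, and the data of the control experiment were not used here.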
